A study of Homo sapiens with 9 samples.

Results

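Interferon-stimulated genes are the antiviral genes that a cell switches on when interferon binds its receptors. The set described here holds 42 of the 42717 genes counted in each library, and all 42 passed the filter on low counts in all 3 comparisons. Members were taken by gene symbol from a named list of 43 symbols, in which DDX58 and RIGI are names of the same gene. RNA was sequenced from the lines S2-028, S2-007 and S2-020, sublines of the human pancreatic adenocarcinoma line SUIT-2, with 3 libraries per line and 9 in all. The labels name no genetic change, interferon or other agent in any line, and all lines grew in 6-well plates in DMEM with inactivated fetal bovine serum. The study compared S2-028, in which the protein maspin lies in the cytoplasm, with S2-007, in which it lies in nucleus and cytoplasm, and S2-020 was sequenced beside them. Sublines of 1 parental line differ in many ways at once, so a difference between them cannot be tied to maspin or to any other trait of a line. The labels do not say whether the libraries of a line came from separate cultures, so p-values measure only the spread between these libraries.

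The libraries held 60328748 to 86253923 reads mapped to genes. Replicates of a line differed by more than sampling noise, with a chi-square per gene of 8.41 to 23.7, against 231 to 351 between lines. Of the counts from 2 to 21, 77.2% were even, so both mates of a read pair appear to have been counted and a count of a few reads can be fewer fragments.

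Type I and type III interferons signal through JAK kinases to the complex ISGF3, which holds STAT2 and IRF9 and binds the interferon-stimulated response element (ISRE) in target promoters. Type II interferon acts mainly at the gamma-activated site (GAS) and through the factor IRF1. The induced proteins sense viral RNA, block entry, replication and release of viruses, and feed back on the pathway, and many tumor cell lines keep a basal level of them without added interferon.

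RefSeq promoters of GRCh38.p14 were held for 34 of the 42 genes. The ISRE core, read as GAAA, any 2 bases and GAAA and searched on both strands in the 250 bases before each annotated start, was present for 23 of the 34 genes (67.6%) and for 3.71% of all 27305 genes with a promoter. The GAS core, read as TTC, any 3 bases and GAA, which is its own reverse complement, was present for 10 of the 34 (29.4%) and for 8.09% of all genes. Promoters are printed so that the letters can be read beside the values. The first 9 were chosen among genes that held a match to the ISRE core and differed between the lines. STAT2 and IRF9 follow as genes with a difference and no match to the ISRE core in the window. IRF9 held a match to the GAS core at 63 to 55 bases before its start. Each run is the last 150 bases before a start, 5′ to 3′ on the strand of the gene, and capitals mark matches to the ISRE core on either strand.

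GBP1, chr1:89065209-89065358, minus strand: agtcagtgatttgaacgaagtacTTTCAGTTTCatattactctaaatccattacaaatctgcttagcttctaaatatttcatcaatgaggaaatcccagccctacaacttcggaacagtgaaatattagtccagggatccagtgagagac
IFITM1, chr11:313890-314039, plus strand: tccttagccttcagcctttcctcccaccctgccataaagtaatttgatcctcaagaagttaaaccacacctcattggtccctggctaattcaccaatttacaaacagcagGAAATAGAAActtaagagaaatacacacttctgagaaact
IFITM3, chr11:320861-321010, minus strand: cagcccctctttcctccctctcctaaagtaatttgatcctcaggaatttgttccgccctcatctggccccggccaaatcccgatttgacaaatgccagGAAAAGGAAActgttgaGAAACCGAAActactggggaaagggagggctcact
EPSTI1, chr13:42992242-42992391, minus strand: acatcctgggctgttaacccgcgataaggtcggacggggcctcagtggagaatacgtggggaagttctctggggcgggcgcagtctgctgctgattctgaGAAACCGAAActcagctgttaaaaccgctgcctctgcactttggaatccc
BST2, chr19:17405631-17405780, minus strand: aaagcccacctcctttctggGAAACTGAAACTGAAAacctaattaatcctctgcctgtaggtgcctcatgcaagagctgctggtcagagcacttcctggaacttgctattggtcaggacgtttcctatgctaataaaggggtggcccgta
SAMD9, chr7:93117980-93118129, minus strand: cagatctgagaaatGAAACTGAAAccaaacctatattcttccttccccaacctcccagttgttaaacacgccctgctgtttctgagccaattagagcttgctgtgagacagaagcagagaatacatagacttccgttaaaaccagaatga
IFI27, chr14:94110586-94110735, plus strand: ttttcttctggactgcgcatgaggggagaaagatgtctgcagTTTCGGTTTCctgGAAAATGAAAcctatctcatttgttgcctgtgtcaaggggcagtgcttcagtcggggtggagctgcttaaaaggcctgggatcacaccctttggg
ISG15, chr1:1013347-1013496, plus strand: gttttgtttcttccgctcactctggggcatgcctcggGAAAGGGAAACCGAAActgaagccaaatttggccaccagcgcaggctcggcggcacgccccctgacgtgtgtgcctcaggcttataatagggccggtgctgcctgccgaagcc
HERC5, chr4:88456969-88457118, plus strand: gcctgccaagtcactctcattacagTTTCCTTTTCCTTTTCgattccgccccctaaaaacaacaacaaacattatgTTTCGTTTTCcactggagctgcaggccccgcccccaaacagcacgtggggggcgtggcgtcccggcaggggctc
STAT2, chr12:56360108-56360257, minus strand: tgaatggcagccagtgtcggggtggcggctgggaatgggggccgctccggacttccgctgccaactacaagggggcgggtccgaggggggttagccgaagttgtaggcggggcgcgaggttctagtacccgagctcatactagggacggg
IRF9, chr14:24161115-24161264, plus strand: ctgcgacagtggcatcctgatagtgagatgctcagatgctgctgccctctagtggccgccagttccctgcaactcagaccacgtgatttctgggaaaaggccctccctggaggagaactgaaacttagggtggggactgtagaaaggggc

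The matches lay at various distances from the start. GBP1 held a match on the opposite strand at 127 to 118 bases before its start, and BST2 held overlapping matches that ran from 130 to 115 bases before its start. IFITM1 and IFITM3 held theirs within 52 bases of the start. Among genes with a promoter, the core was found in 4 of 5 that were lower in S2-028 than in both other lines and in 3 of 4 that were lower in S2-020 than in both. It was also found in 3 of 5 that were higher in S2-007 than in both others and in 4 of 7 not called in any comparison. These shares lie around the 23 of 34 of the whole set, with few genes in each group. Some calls that define the groups were lost under alternative fits. A match describes letters only.

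Differentially expressed genes (DEGs) were called where the edgeR adjusted p was under 0.05 and the lines differed at least 1.5-fold. Of the 42 genes, 35 were DEGs in at least 1 comparison, 21 in exactly 2 and 6 in all 3. Over the 24986 genes tested in every comparison, these shares were 35.1%, 17.7% and 5.16%. S2-007 had the highest mean for 17 genes, S2-028 for 15 and S2-020 for 10. S2-020 had the lowest mean for 19 genes, S2-028 for 15 and S2-007 for 8. No line was highest or lowest for every gene. As a description of the set, the mean of log2(CPM + 1) over the 42 genes was 4.28 to 4.37 in the libraries of S2-007, 3.78 to 3.85 in S2-020 and 3.83 to 3.91 in S2-028, and summed CPM (counts scaled to library size) were 1722 to 1781, 1441 to 1461 and 1488 to 1559.8. The S2-007 libraries lay above all others on both measures. Log2 fold changes are given as the estimate ± its standard error.

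In S2-028 against S2-007, 20 of the 42 genes were DEGs (47.6%), with 4 upregulated and 16 downregulated. Over all 26371 genes tested, 18.4% were called, 10.2% upward and 8.19% downward, and 24.2% were called among genes with a mean of at least 1 CPM. The median log2 fold change was -0.20 for the 42 genes and 0.00 for all genes, and the median absolute value was 0.58 against 0.35. Libraries of S2-028 and S2-007 were fully separated for 29 of the 42 genes, against 43.7% of all genes.

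In S2-020 against S2-007, 22 genes were DEGs (52.4%), with 4 upregulated and 18 downregulated. The background was 21.6% called, 9.57% upward and 12.1% downward, or 28.5% among genes with a mean of at least 1 CPM. The median log2 fold change was -0.42 for the set and -0.05 for all genes. The libraries did not overlap for 34 of the 42 genes, against 48.8% of all genes.

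In S2-028 against S2-020, 26 genes were DEGs (61.9%), with 17 upregulated and 9 downregulated. Of all genes, 22.2% were called, 12.1% upward and 10.1% downward, or 28.9% among genes with a mean of at least 1 CPM. The median log2 fold change was 0.24 for the set and 0.02 for all genes, and 33 of the 42 genes did not overlap, against 48.6%. These comparisons share libraries, so each line enters 2 of them.

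**Figure D1:**
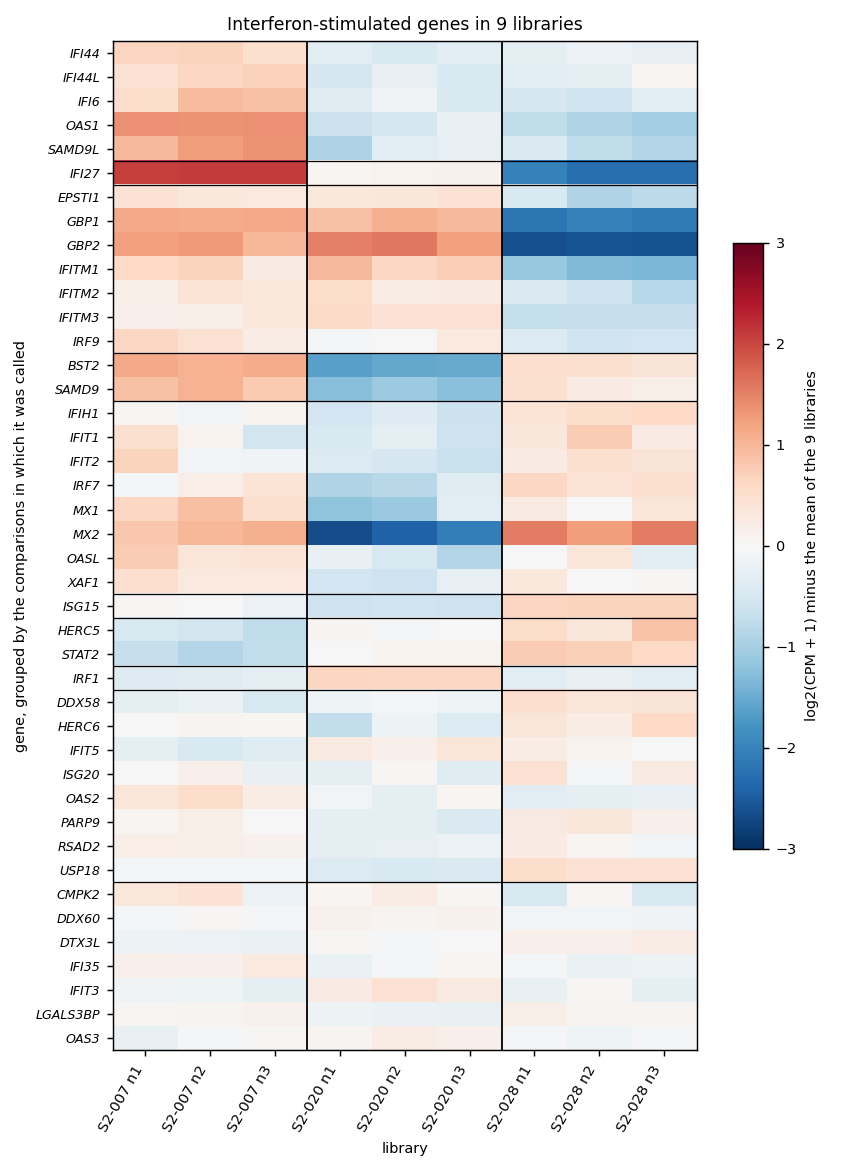
Heat map of the 42 genes (rows, grouped by the comparisons in which they were called) in the 9 libraries (columns, n1 to n3 being the replicates of a line). Color is log2(CPM + 1) minus the mean of that gene over the 9 libraries. GBP1, GBP2 and IFI27 stand out as low in S2-028, and BST2, SAMD9 and MX2 as low in S2-020.

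Grouped by their calls, 8 genes were lower in S2-020 than in both other lines: IFIH1, IRF7, OASL, IFIT1, IFIT2, MX1, MX2 and XAF1. A further 7 were lower in S2-028 than in both: IRF9, GBP1, GBP2, IFITM1, IFITM2, IFITM3 and EPSTI1. OAS1, SAMD9L, IFI6, IFI44 and IFI44L were higher in S2-007 than in both others, and IRF1 was higher in S2-020 than in both others. The 6 genes called in all comparisons took 4 orders, in which IFI27 fell from S2-007 through S2-020 to S2-028, BST2 and SAMD9 from S2-007 through S2-028 to S2-020, STAT2 and HERC5 from S2-028 through S2-020 to S2-007, and ISG15 from S2-028 through S2-007 to S2-020. No comparison called DDX60, OAS3, IFIT3, CMPK2, DTX3L, IFI35 or LGALS3BP. These groups hold for the main fits. IFIH1, OASL, IFIT1, IFIT2, XAF1, IRF9, SAMD9, HERC5 and ISG15 each lost a call that defines their group under some alternative, as given beside the genes below.

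**Figure D2:**
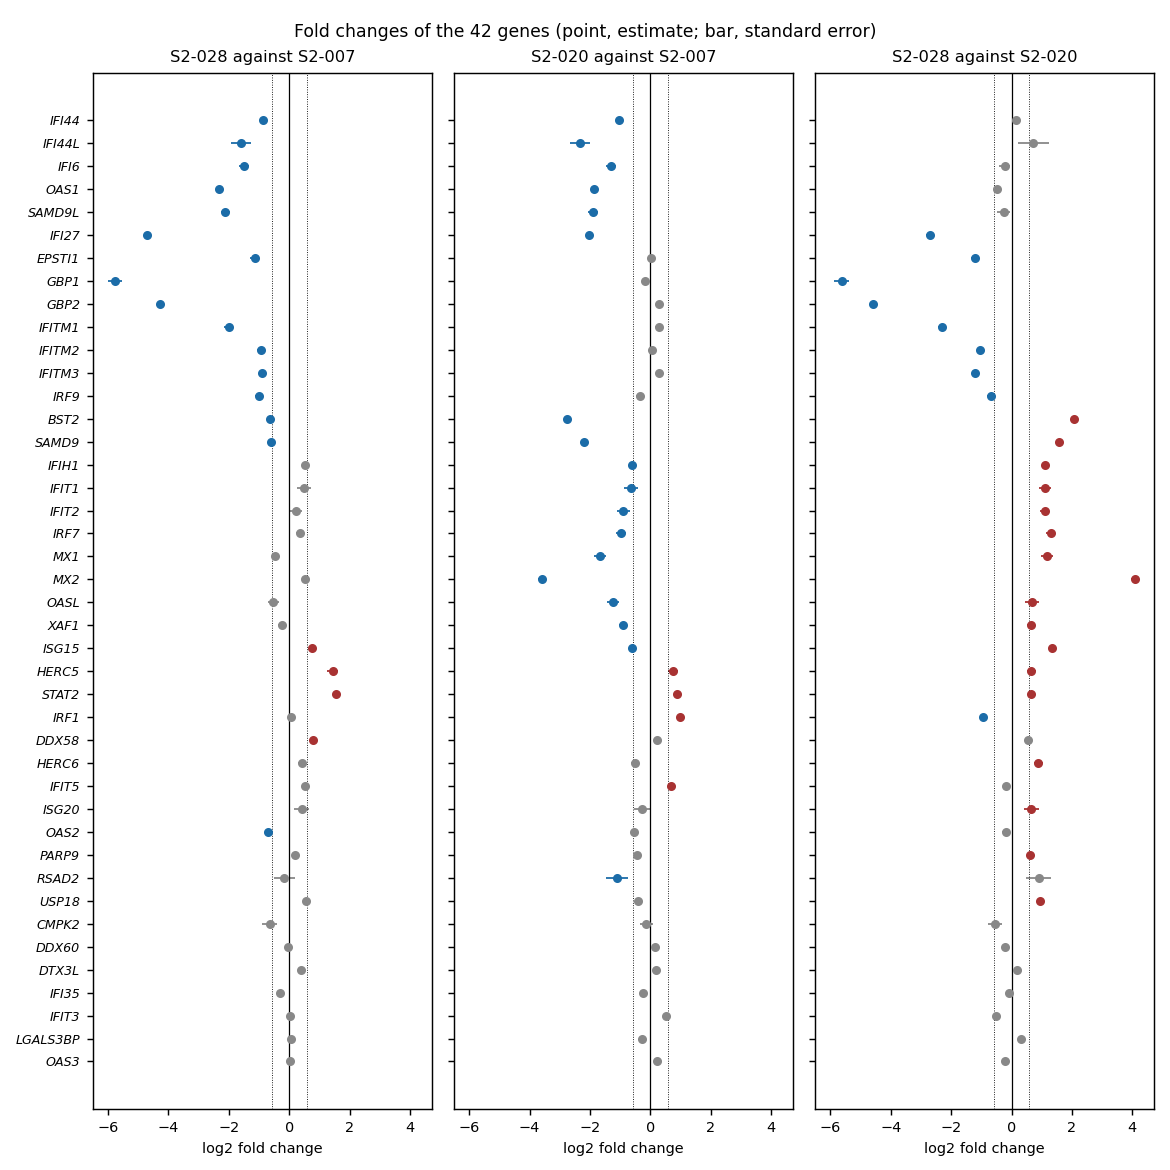
Log2 fold change of each of the 42 genes in the 3 comparisons, with points for the estimate and bars for the standard error. Red points are upregulated DEGs, blue points downregulated DEGs and gray points not called, and dotted lines mark a 1.5-fold difference. The longest shift is that of GBP1 in S2-028 against S2-007, which rests on few reads in S2-028.

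The cytosolic sensors of viral RNA differed in modest amounts. DDX58, which encodes RIG-I, a receptor for viral RNA ends, measured 19.7, 20.6 and 16.96 CPM in S2-007, 21.7, 23.2 and 21.7 in S2-020 and 34.6, 31.02 and 31.5 in S2-028. All S2-028 libraries lay above all others, and DDX58 was upregulated in S2-028 against S2-007 (0.79 ± 0.09, adjusted p = 4.36e-07). Of the 31-base words in its exons, 46.0% also occur in other annotated genes, mostly a readthrough gene, so its reads may be split between them. IFIH1, which encodes MDA5, a receptor for long double-stranded RNA, was upregulated in S2-028 against S2-020 (1.103 ± 0.10). Its call in S2-020 against S2-007 (-0.60 ± 0.10) was lost under 7 of 13 alternatives, in which it lay between -0.58 and -0.52. These were RLE size factors, DESeq2, the fit of all 9 libraries and the fits without S2-007 replicate 1, S2-007 replicate 3, S2-020 replicate 1 or S2-020 replicate 3. DDX60, a helicase proposed to assist these receptors, ranged from 17.9 to 21.4 CPM over the 9 libraries.

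The transcription factors of the pathway did not move together. STAT2, the interferon-specific subunit of ISGF3, measured 14.8, 12.8 and 14.4 CPM in S2-007, 24.4, 26.6 and 26.5 in S2-020 and 42.5, 41.2 and 37.4 in S2-028. The 3 lines did not overlap, and the log2 fold change was 1.55 ± 0.09 in S2-028 against S2-007, 0.88 ± 0.09 in S2-020 against S2-007 and 0.63 ± 0.08 in S2-028 against S2-020. The 50 tested genes nearest to STAT2 on the chromosome also had raised medians in the first 2 of these comparisons, at 0.74 and 0.68, and a median of 0.03 in the last. The part of the region in the difference of STAT2 was not tested.

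IRF9, the DNA-binding subunit of ISGF3, went the other way. Its level was 20.3, 17.9 and 15.1 CPM in S2-007, 12.6, 12.96 and 16.05 in S2-020 and 9.45, 8.18 and 8.32 in S2-028. It was downregulated in S2-028 against S2-007 (-1.01 ± 0.12, adjusted p = 8.1e-07) and against S2-020 (-0.69 ± 0.12), the latter at -0.57 and not called without S2-020 replicate 3. Over the lines, the means of STAT2 and IRF9 were in opposite orders.

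IRF1, which drives genes induced by type II interferon, stood out in S2-020. It measured 43.7, 44.8 and 47.5 CPM in S2-007, 89.7, 88.4 and 89.5 in S2-020 and 44.8, 49.4 and 46.3 in S2-028. The S2-020 libraries lay apart from all others (0.98 ± 0.06 against S2-007, adjusted p = 1.97e-11), whereas S2-028 and S2-007 overlapped (0.07 ± 0.07). IRF7, which amplifies the production of type I interferon, had the reverse profile. It measured 11.3, 13.6 and 15.9 CPM in S2-007, 5.76, 6.17 and 8.81 in S2-020 and 18.5, 15.8 and 16.7 in S2-028, and was upregulated in S2-028 against S2-020 (1.29 ± 0.14) and downregulated in S2-020 against S2-007 (-0.98 ± 0.15).

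The enzymes and proteins that act on viral RNA split within families. OAS1 makes the oligoadenylates that activate RNase L, as do OAS2 and OAS3, its neighbors on chromosome 12. OAS1 measured 72.8, 70.9 and 73.2 CPM in S2-007, 17.1, 18.9 and 23.2 in S2-020 and 15.8, 14.3 and 12.9 in S2-028. The S2-007 libraries were far above the rest, and OAS1 was downregulated in S2-028 (-2.31 ± 0.08, adjusted p = 2.73e-15) and in S2-020 (-1.87 ± 0.09) against S2-007. OAS2 was downregulated in S2-028 against S2-007 (-0.69 ± 0.12), and OAS3 was not called, with 132 to 182 CPM over the 9 libraries. OASL, a relative without the synthetase activity that aids RIG-I, was downregulated in S2-020 against S2-007 (-1.24 ± 0.19). Its call in S2-028 against S2-020 (0.68 ± 0.23) was lost without S2-020 replicate 3 or S2-028 replicate 2.

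The IFIT proteins bind viral RNA and hinder its translation. IFIT1 and IFIT2 were upregulated in S2-028 against S2-020 (1.11 ± 0.18 and 1.09 ± 0.16). Both were also called downregulated in S2-020 against S2-007 (-0.64 ± 0.24 and -0.90 ± 0.22), but S2-007 replicate 1 carried these calls. In that library IFIT1 was at 6.72 CPM and IFIT2 at 7.91 CPM, and without it the log2 fold changes were -0.31 and -0.52 and neither was called. IFIT1 also lost its call without S2-007 replicate 2, S2-020 replicate 1 or S2-020 replicate 3. IFIT3, an adaptor of IFIT1, was not called, with values of 0.52 ± 0.09 in S2-020 against S2-007 and -0.52 ± 0.11 in S2-028 against S2-020. IFIT5 measured 12.2, 10.7 and 11.3 CPM in S2-007, 18.3, 16.9 and 19.7 in S2-020 and 17.6, 16.1 and 14.8 in S2-028. It was upregulated in S2-020 against S2-007 (0.68 ± 0.10, adjusted p = 7.28e-06). ISG20, an exonuclease that degrades RNA, lay between 1.17 and 2.83 CPM, and its call in S2-028 against S2-020 (0.66 ± 0.25) was lost under 6 of 13 alternatives, at 0.50 to 0.66, among them no filter on low counts and the fits without S2-020 replicate 1, S2-020 replicate 3, S2-028 replicate 1 or S2-028 replicate 3.

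The guanylate-binding proteins GBP1 and GBP2 are GTPases that attack intracellular pathogens and respond strongly to type II interferon. GBP1 lies at chr1:89052319-89065208 and GBP2 at chr1:89106132-89126114. GBP1 measured 10.1, 10.1 and 10.2 CPM in S2-007, 8.28, 9.86 and 8.96 in S2-020 and 0.129, 0.248 and 0.163 in S2-028. The S2-028 values rest on 8, 16 and 10 reads, against 598 to 830 reads in the libraries of the other lines. GBP1 thus passed the filter on low counts through the lines where it was high, and the size of its changes in S2-028 is uncertain. The log2 fold change of -5.77 ± 0.23 against S2-007 was the largest of any member in size, and that against S2-020 was -5.63 ± 0.24. S2-020 and S2-007 differed by -0.17 ± 0.11, which was not called.

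GBP2 measured 44.8, 46.2 and 37.9 CPM in S2-007, 54.04, 56.9 and 44.9 in S2-020 and 2.10, 2.23 and 2.17 in S2-028. It was downregulated in S2-028 against S2-007 (-4.28 ± 0.11, adjusted p = 3.12e-17) and against S2-020 (-4.59 ± 0.11), and S2-020 and S2-007 overlapped. GBP1 shares 15% and GBP2 10.6% of its 31-base words with other genes, largely of the same family. The 50 nearest tested genes around GBP1 had medians of 0.01 in S2-028 against S2-007 and 0.15 in S2-028 against S2-020.

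The dynamin-like GTPases MX1 and MX2 trap viral nucleocapsids. MX2 lies at chr21:41362027-41409393. It measured 47.6, 54.4 and 57.02 CPM in S2-007, 3.39, 4.14 and 5.56 in S2-020 and 78.97, 65.1 and 80.03 in S2-028. It was downregulated in S2-020 against S2-007 (-3.60 ± 0.13, adjusted p = 7.71e-15), and its 4.09 ± 0.13 in S2-028 against S2-020 was the largest upward shift of any member. MX1, its neighbor on chromosome 21, measured 17.2, 20.8 and 15.4 CPM in S2-007, 4.04, 4.38 and 8.33 in S2-020 and 13.3, 10.9 and 14.1 in S2-028. It was lower in S2-020 as well (-1.67 ± 0.19 against S2-007), and S2-020 replicate 3 lay between its other replicates and the lowest S2-028 library. The median of the 50 tested genes nearest to MX1 was -0.40 in S2-020 against S2-007, smaller than the change of either gene.

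SAMD9 and SAMD9L, adjacent genes on chromosome 7 whose proteins restrict poxviruses and cell growth, had different profiles. SAMD9 measured 48.1, 53.5 and 45.01 CPM in S2-007, 10.04, 11.6 and 10.1 in S2-020 and 35.8, 30.6 and 29.1 in S2-028. It was lowest in S2-020 (-2.21 ± 0.09 against S2-007, and 1.58 ± 0.10 in S2-028 against S2-020). Its call in S2-028 against S2-007 (-0.59 ± 0.09) was lost under 4 of 13 alternatives, in which it lay between -0.58 and -0.52. These were no filter on low counts and the fits without S2-007 replicate 2, S2-028 replicate 2 or S2-028 replicate 3.

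SAMD9L measured 13.3, 16.3 and 17.7 CPM in S2-007, 2.85, 4.72 and 5.16 in S2-020 and 4.43, 3.31 and 2.95 in S2-028. It was downregulated in both S2-028 (-2.11 ± 0.16) and S2-020 (-1.89 ± 0.17) against S2-007, and those lines overlapped each other. RSAD2, which encodes viperin, an enzyme that makes a chain-terminating nucleotide, was among the faintest members, with 24 to 63 reads per library. Its call in S2-020 against S2-007 (-1.11 ± 0.36) was lost without any 1 of S2-007 replicates 1 and 2 and S2-020 replicates 1 and 2, at -1.09 to -1.01. CMPK2, a nucleotide kinase beside it on chromosome 2, was not called. Its value in S2-028 against S2-007 (-0.64 ± 0.26, adjusted p = 0.0595) passed the thresholds under 9 of 13 alternatives, among them those without S2-007 replicate 3 or S2-028 replicate 2.

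**Figure D3:**
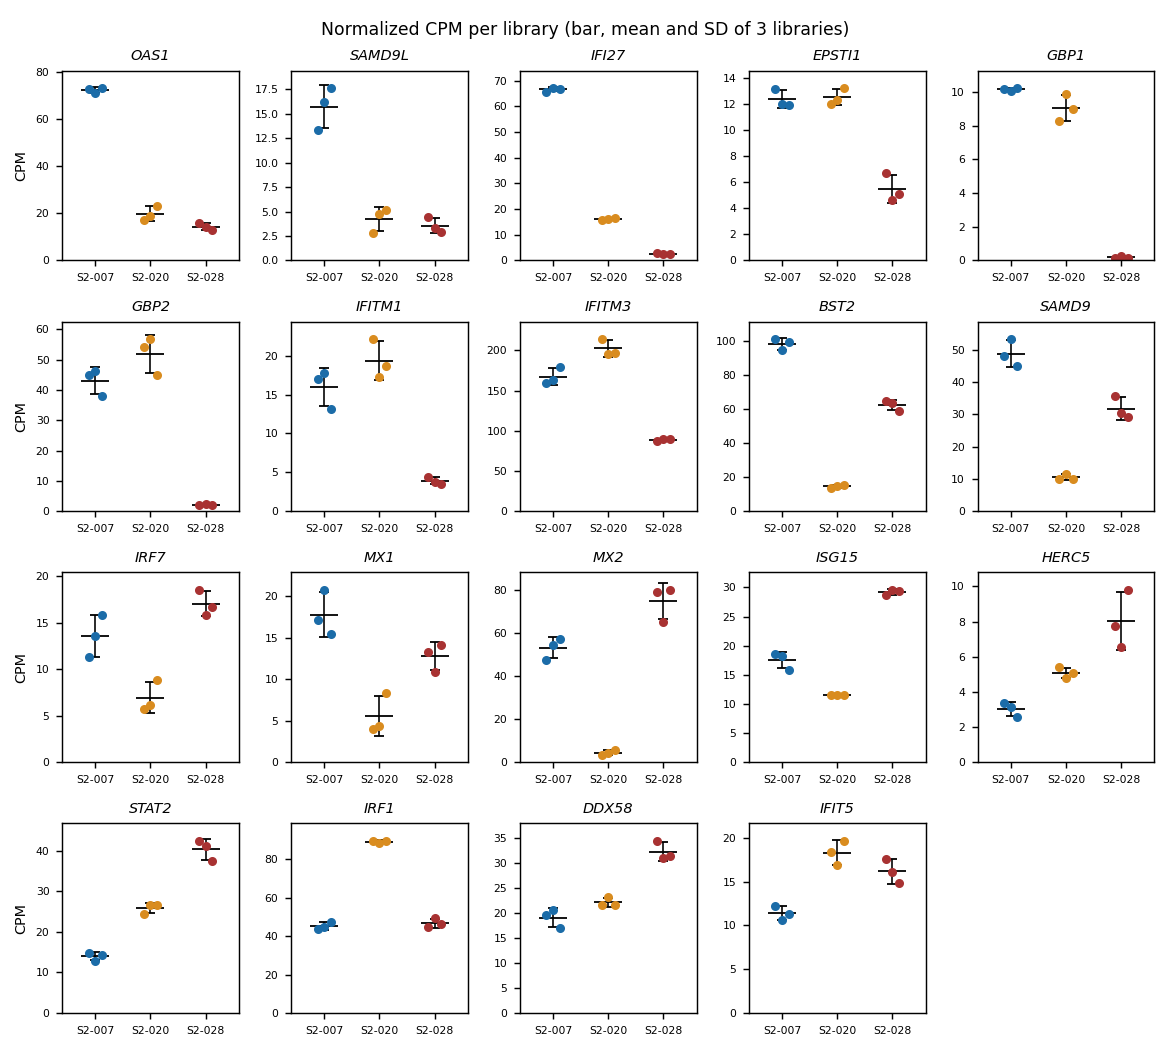
TMM-normalized CPM per library for 19 members, with the mean and SD of 3 libraries in black and each axis starting at 0. GBP1, GBP2 and IFI27 are near the axis in S2-028, BST2, SAMD9 and MX2 are low in S2-020, and OAS1 and SAMD9L are high in S2-007.

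The restriction factors of cell membranes were downregulated in S2-028 against S2-007 in 4 of 4 genes, against 8.19% of all genes tested. In S2-020 against S2-007, 1 of the 4 was downregulated and none upregulated (12.1% and 9.57% of all genes). In S2-028 against S2-020, 3 were downregulated and 1 upregulated (10.1% and 12.1% of all genes). Of the 4 genes, 3 are the adjacent IFITM genes, which share sequence. BST2, or tetherin, holds budding virions on the cell, and its gene lies at chr19:17402939-17405630. It measured 102, 94.7 and 99.7 CPM in S2-007, 13.9, 14.9 and 15.2 in S2-020 and 65.1, 63.6 and 59.01 in S2-028. The lines did not overlap, and the change in S2-020 against S2-007 (-2.75 ± 0.06, adjusted p = 1.67e-17) was larger than that in S2-028 against S2-007 (-0.63 ± 0.06). S2-028 and S2-020 differed by 2.08 ± 0.08.

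IFITM1, IFITM2 and IFITM3 make membranes resist fusion with viruses. IFITM3 measured 159, 163 and 179.5 CPM in S2-007, 214, 196 and 197 in S2-020 and 87.4, 89.3 and 89.4 in S2-028. IFITM1 measured 17.003, 17.8 and 13.2 CPM in S2-007, 22.2, 17.3 and 18.7 in S2-020 and 4.43, 3.75 and 3.56 in S2-028. All S2-028 libraries were below all others for both genes. In S2-028 against S2-007 the log2 fold change was -2.003 ± 0.14 for IFITM1, -0.95 ± 0.11 for IFITM2 and -0.89 ± 0.06 for IFITM3, and against S2-020 it was -2.31 ± 0.13, -1.04 ± 0.11 and -1.20 ± 0.05. None of the 3 was called in S2-020 against S2-007. The genes share sequence, with 44.5% of the 31-base words of IFITM1, 30.1% of IFITM2 and 41.8% of IFITM3 found in other genes, so part of their counts may belong to a relative.

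ISG15 and its enzymes were upregulated in S2-028 against S2-020 in 4 of 4 genes, against 12.1% of all genes tested. In S2-028 against S2-007, 2 of the 4 were upregulated and none downregulated (10.2% and 8.19% of all genes). In S2-020 against S2-007, 1 was upregulated and 1 downregulated (9.57% and 12.1% of all genes). ISG15 encodes a ubiquitin-like protein that is attached to other proteins or secreted. It measured 18.5, 18.1 and 15.9 CPM in S2-007, 11.5, 11.5 and 11.5 in S2-020 and 28.7, 29.6 and 29.5 in S2-028. The lines did not overlap, and the log2 fold change was 0.77 ± 0.09 in S2-028 against S2-007 and 1.34 ± 0.08 in S2-028 against S2-020. The call in S2-020 against S2-007 (-0.61 ± 0.09) was lost under 5 of 13 alternatives, at -0.58 to -0.56. These were RLE size factors, DESeq2, the fit of all 9 libraries and the fits without S2-007 replicate 1 or 2.

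HERC5, the main ligase that attaches ISG15, measured 3.35, 3.13 and 2.58 CPM in S2-007, 5.39, 4.78 and 5.06 in S2-020 and 7.77, 6.55 and 9.81 in S2-028. It was upregulated in S2-028 (1.44 ± 0.18) and S2-020 (0.75 ± 0.17) against S2-007. In S2-028 against S2-020 it was called at 0.66 ± 0.15, and without S2-028 replicate 3 it was at 0.50 and not called. HERC6, a related ligase, and USP18, which removes ISG15 and dampens the type I receptor, were called in S2-028 against S2-020 (0.89 ± 0.15 and 0.94 ± 0.09) and in no other comparison. The 50 tested genes around USP18 had a median of 0.54 in that comparison. Of the pair PARP9 and DTX3L, which together modify histones and viral proteins, PARP9 was called in S2-028 against S2-020 (0.60 ± 0.07), a call that was lost without S2-020 replicate 3 or S2-028 replicate 2. DTX3L ranged from 90.2 to 122 CPM.

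The last group holds induced proteins with other or less settled roles. Of these, 5 of 8 were downregulated in S2-028 against S2-007 (8.19% of all genes) and 5 of 8 in S2-020 against S2-007 (12.1% of all genes). In S2-028 against S2-020, 1 was upregulated and 2 downregulated (12.1% and 10.1% of all genes). IFI27, a small hydrophobic membrane protein and a widely used marker of type I interferon exposure, measured 65.8, 67.2 and 66.9 CPM in S2-007, 15.7, 16.2 and 16.6 in S2-020 and 2.95, 2.31 and 2.32 in S2-028. The gene lies at chr14:94105894-94116690. Its replicates were close and the lines did not overlap. The log2 fold change was -4.70 ± 0.10 in S2-028 against S2-007 (adjusted p = 1.23e-18), -2.04 ± 0.06 in S2-020 against S2-007 and -2.69 ± 0.13 in S2-028 against S2-020. EPSTI1, a protein named for its induction in epithelium by stroma, measured 13.1, 11.999 and 11.9 CPM in S2-007, 12.02, 12.3 and 13.2 in S2-020 and 6.68, 4.63 and 5.11 in S2-028. It was downregulated in S2-028 against both other lines (-1.15 ± 0.14 and -1.20 ± 0.14), and the other lines overlapped. The 50 tested genes nearest to EPSTI1 had medians of -0.27 in S2-028 against S2-007 and -0.56 in S2-028 against S2-020. The part of the region in the difference of EPSTI1 was not tested.

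IFI6, an inhibitor of viral remodeling of the endoplasmic reticulum, was downregulated in S2-028 (-1.50 ± 0.17) and S2-020 (-1.30 ± 0.16) against S2-007, and so were IFI44 (-0.87 ± 0.11 and -1.05 ± 0.10) and IFI44L (-1.60 ± 0.34 and -2.34 ± 0.34). IFI44L was faint, with 16 to 49 reads in the libraries of S2-020 and S2-028 and 102 to 134 in S2-007. XAF1, an antagonist of the apoptosis inhibitor XIAP, was downregulated in S2-020 against S2-007 (-0.92 ± 0.12). Its call in S2-028 against S2-020 (0.65 ± 0.13) was lost without S2-020 replicate 2 or S2-028 replicate 1, and 36.6% of its 31-base words occur in another gene. LGALS3BP, a secreted glycoprotein that binds galectins, was the member with the highest CPM in every line, between 394 and 519, and was not called. IFI35 lay between 22.3 and 31.8 CPM and was not called.

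Per kilobase of transcript, IFITM3 and LGALS3BP were at the top of the set in all lines. The mean level was 274 ± 17.8 CPM per kilobase for IFITM3 and 222 ± 7.36 for LGALS3BP in S2-007 (SD, n = 3). BST2 came next in S2-007 at 98.5 ± 3.53 and in S2-028 at 62.5 ± 3.15. In S2-020 LGALS3BP, at 183 ± 4.23, was followed by IFITM1 at 28.98 ± 3.79 and IFITM2 at 28.6 ± 3.91, whose levels did not differ beyond their spread. The lowest level per kilobase was that of RSAD2 in S2-007 at 0.244 ± 0.00904, IFI44L in S2-020 at 0.0541 ± 0.0222 and GBP1 in S2-028 at 0.0625 ± 0.0211.

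Many members lie in clusters of related genes, and neighbors shared their calls at some loci and not at others. In the GBP cluster on chromosome 1, which spans 266 kb with 5 genes shown, GBP1 and GBP2 had the values given above in S2-028 against S2-007, while GBP3 measured -0.95 ± 0.08 and GBP4 -0.81 ± 0.21, both DEGs, and GBP5 0.68 ± 0.31, which was not called. GBP4 was upregulated in S2-020 against S2-007 (1.16 ± 0.13), in contrast to GBP1. In the OAS cluster, of 105 kb, OAS1 was downregulated and OAS3, the next gene, was not called. SAMD9 and SAMD9L span 48.9 kb, and in S2-028 against S2-020 SAMD9 was upregulated (1.58 ± 0.10) while SAMD9L stood at -0.26 ± 0.22. The 3 IFITM genes, within 13.0 kb, were called in the same comparisons and direction.

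**Figure D4:**
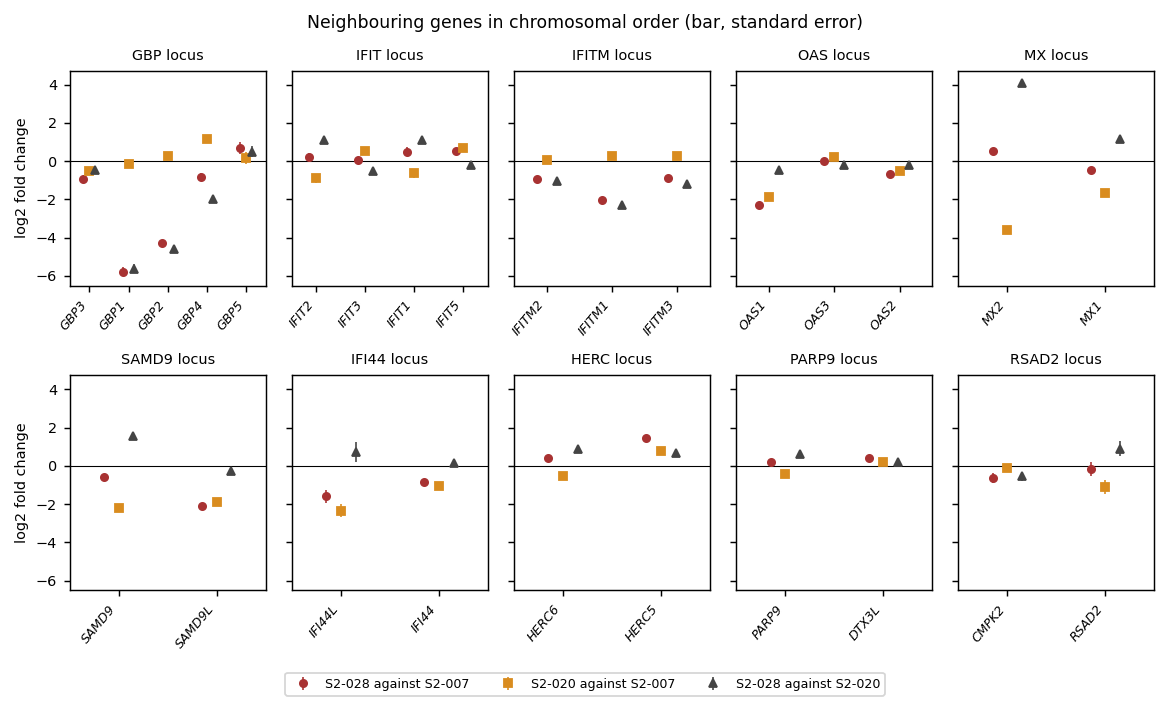
Log2 fold change of neighboring genes in chromosomal order at 10 loci, with bars for the standard error and symbols for the comparisons. GBP1 and GBP2 lie far below GBP3, GBP4 and GBP5 in both comparisons with S2-028. The 3 IFITM genes are all downregulated in both of these, with IFITM1 the lowest.

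The ligands themselves had few or no reads. Of 22 interferon genes, 20 had at most 10 reads in every library, and IFNB1 had 2 reads over the 9 libraries. IFNE, an epithelial type I interferon, had 44 to 65 reads in S2-007, 68 to 129 in S2-020 and 11 to 52 in S2-028, and was downregulated in S2-028 against S2-020 (-1.40 ± 0.44). IFNW1 had 1 to 11 reads in S2-007, 18 to 24 in S2-020 and 0 to 2 in S2-028. IFNW1 passed the filter on low counts through its reads in S2-020, so no call is given for it. Of 8 genes beside the ligand cluster on chromosome 9, 2 were downregulated in S2-020 against S2-007, against 12.1% of all genes. These were MTAP (-1.12 ± 0.05) and DMRTA1 (-1.92 ± 0.19). None of the 8 was called in S2-028 against S2-007, where 18.4% of all genes were called. In S2-028 against S2-020, 2 of the 7 tested were upregulated, against 12.1% of all genes. The list is too short to set these counts apart from the shares of all genes.

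Several receptor chains were highest in S2-007. Of 10 receptor and kinase genes, 3 were downregulated and none upregulated in S2-028 against S2-007, and 5 were downregulated and 1 upregulated in S2-020 against S2-007. The downward shares of all genes were 8.19% and 12.1%. IFNAR2, the chain of the type I receptor that binds STAT2, measured 39.1, 39.9 and 39.7 CPM in S2-007, 17.9, 16.3 and 15.5 in S2-020 and 27.5, 22.7 and 23.1 in S2-028. The type II chains were also downregulated, IFNGR1 by 1.18 and IFNGR2 by 0.87 in S2-028 against S2-007 and by 0.96 and 1.21 in S2-020 against S2-007 on the log2 scale. IFNAR1 (-0.80 ± 0.06) and IL10RB (-1.33 ± 0.08), chains of the type I and type III receptors, were lower in S2-020 against S2-007, and together with IFNAR2 and IFNGR2 they adjoin each other on chromosome 21. The kinase JAK1 was the exception, upregulated in S2-020 against S2-007 (0.91 ± 0.05). In S2-028 against S2-020, 2 genes of this list were upregulated and 1 was downregulated, or 30% called against 22.2% of all genes.

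Of 12 inhibitors of the pathway, 4 were upregulated and none downregulated in S2-028 against S2-007, 5 were upregulated and 1 downregulated in S2-020 against S2-007, and 1 went each way in S2-028 against S2-020. Of all genes, 10.2% and 9.57% were called upward against S2-007 in these lines, and 22.2% were called in S2-028 against S2-020. PTPN6 (0.59 ± 0.08) and SAMHD1 (0.59 ± 0.07), among the 4 in S2-028, sat at the 1.5-fold threshold. SOCS1, which blocks JAK kinases, measured 0.301, 0.437 and 0.651 CPM in S2-007, 3.88, 3.83 and 5.004 in S2-020 and 2.49, 2.40 and 2.37 in S2-028. S2-007 was below both other lines (2.41 ± 0.30 in S2-028 and 3.19 ± 0.26 in S2-020). SOCS3, a related inhibitor, followed the same order (1.21 ± 0.15 and 1.48 ± 0.14). PTPN6, a phosphatase that acts on JAK-STAT signaling, measured 2.03 ± 0.08 in S2-028 against S2-020.

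**Figure D5:**
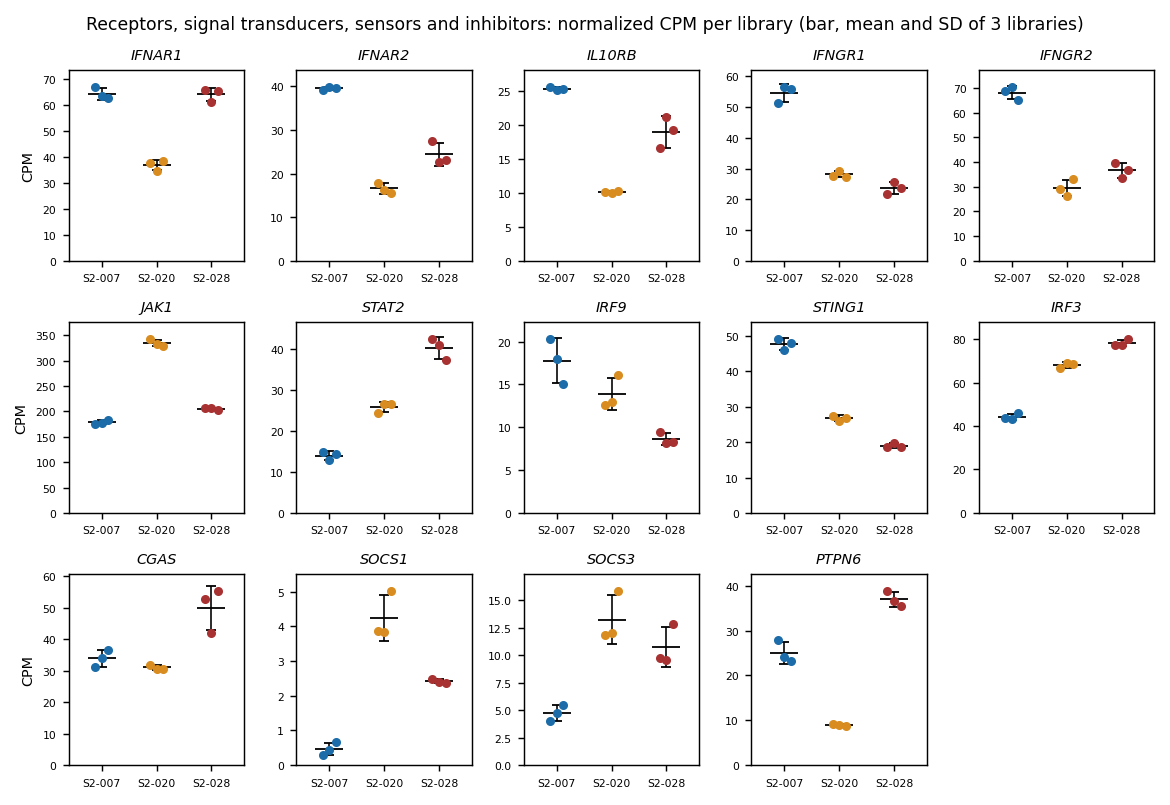
TMM-normalized CPM per library for 14 genes of interferon signaling and sensing, with the mean and SD of 3 libraries in black and each axis starting at 0. The receptor chains are highest in S2-007 except IFNAR1, which overlaps with S2-028, and SOCS1 and SOCS3 are lowest in S2-007.

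Of 17 genes of nucleic acid sensing, 3 were upregulated and 1 downregulated in S2-028 against S2-007, 2 and 2 in S2-020 against S2-007, and 3 and 2 in S2-028 against S2-020. Shares called were 23.5%, 23.5% and 29.4%, near the 18.4%, 21.6% and 22.2% of all genes. STING1, the adaptor of cytosolic DNA sensing, was downregulated in S2-028 (-1.30 ± 0.08) and S2-020 (-0.83 ± 0.07) against S2-007, and IRF3, the factor it activates, was upregulated (0.85 ± 0.06 and 0.62 ± 0.06). A further 46 interferon-stimulated genes outside the set had 5 upregulated and 4 downregulated DEGs in S2-028 against S2-007, 5 and 6 in S2-020 against S2-007, and 8 and 7 in S2-028 against S2-020. Their shares called, 19.6%, 23.9% and 32.6%, were close to those of all genes in the first 2 comparisons, and 28.9% of genes with a mean of at least 1 CPM were called in the last. Their median log2 fold changes were -0.02, -0.02 and 0.01. SERPING1, the inhibitor of complement C1, had 7 to 20 reads in S2-007, 18 to 20 in S2-020 and 188 to 304 in S2-028. In S2-028 against S2-007 it passed the filter on low counts through its reads in S2-028, so no fold change is given for it. SLFN5 followed the order of ISG15 (0.92 ± 0.08 and -0.71 ± 0.08 against S2-007). SLFN11 was downregulated in S2-028 (-0.84 ± 0.06) and upregulated in S2-020 (0.79 ± 0.05).

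Markers of the labelled cell type were present in all libraries, with summed levels of 9 ductal epithelial genes of 9838 to 10165 CPM in S2-007, 4354 to 5496 in S2-020 and 15086 to 17947 in S2-028. KRT8 and KRT18 made up much of these sums. In S2-020 against S2-007, 7 of the 9 were downregulated (12.1% of all genes), KRT19 among them (-4.40 ± 0.07). In S2-028 against S2-007, 4 were upregulated and 2 downregulated (10.2% and 8.19% of all genes). The 2 downregulated were CFTR (-2.92 ± 0.10) and MUC1 (-0.61 ± 0.16). In S2-028 against S2-020, 7 were upregulated and 1 downregulated (12.1% and 10.1% of all genes). CDH1 (E-cadherin) was at 4.72, 4.60 and 4.19 CPM in S2-020, against 55.2, 57.8 and 51.9 in S2-007. The sum of 10 leukocyte markers was 338 to 419 CPM in S2-007 and 12.1 to 15.2 CPM in the other lines, mostly from LYZ (292 to 375 CPM in S2-007). The macrophage gene CD68 (-1.98 ± 0.09 in S2-028 and -2.42 ± 0.09 in S2-020 against S2-007) was also highest in S2-007, at 39.2, 42.4 and 43.1 CPM there. Other annotated genes overlap 85.6% of the exon bases of CD68 and 34.7% of those of LYZ, so part of their counts may belong to those genes. CD14, a further macrophage gene, had 36 to 62 reads in S2-007, 4 to 8 in S2-020 and 2 to 8 in S2-028. It passed the filter on low counts through its reads in S2-007, so no call is given for it. The pan-leukocyte gene PTPRC stayed between 0.0831 and 0.403 CPM with CD3D at 3 reads or fewer in every library. The T cell gene CD3E went the other way, with 0 reads in S2-007, 8 to 22 in S2-020 and 18 to 22 in S2-028. The part of cells with LYZ, CD68 or CD14 in the levels that were high in S2-007 was not tested. Plasmacytoid dendritic cells are a main source of type I interferon. Their 4 markers summed to 2.597 to 3.24 CPM in S2-007, 1.12 to 1.39 in S2-020 and 0.929 to 1.42 in S2-028. TCF4 made up most of these sums and was downregulated against S2-007 (-1.72 ± 0.25 in S2-028 and -1.42 ± 0.23 in S2-020). CLEC4C had 0 to 14 reads per library, IL3RA 2 to 18 and LILRA4 0 to 10, and the mean of CLEC4C was lowest in S2-007. The part of such cells was not tested. The summed markers of fibroblasts (8), endothelium (4) and acinar and endocrine cells (9) stayed between 0.738 and 9.90 CPM in all libraries. Among these, the endothelial sum was highest in S2-020, at 8.90 to 9.90 CPM against 6.06 to 7.75 in S2-007 and 5.47 to 7.25 in S2-028. In bulk RNA, fewer expressing cells and less RNA per cell cannot be told apart.

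The spread between replicates was wider at the median for the set than for all genes. Among genes with a mean of at least 5 CPM, the median coefficient of variation between replicates was 7.18% for 36 members and 5.64% for all 11925 genes in S2-007, 8.48% and 5.14% in S2-020, and 8.07% and 6.39% in S2-028. IFIT1 in S2-007 spread over 2.41-fold and MX1 in S2-020 over 2.06-fold between the lowest and highest replicate. By contrast, IRF1 in S2-020 spread over 1.01-fold and GBP1 in S2-007 over 1.02-fold.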

How the data were processed

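RNA-seq libraries of S2-028, S2-007 and S2-020 (3 each) were analysed. The authors deposited whole-number counts of reads per gene for 42717 genes, made from strand-specific poly(A) libraries with Trimmomatic 0.39, BWA 0.7.17 and GRCh38.p14 per the labels and methods. This aligner does not splice, so reads that cross exon boundaries may be missing. The counting tool and its treatment of strand and repeated matches are not given in the sources used here. The deposited table also holds 18 columns of normalized signal, which were not used, and 2 lines without a gene, which were left out.

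Counts were tested with edgeR 4.0.16 in R 4.3.3 (TMM, filterByExpr with a minimum count of 10 and total of 15, quasi-likelihood F-test), with the 6 libraries compared in each fit and Benjamini-Hochberg adjustment over all genes tested. DEGs had an adjusted p under 0.05 and differed at least 1.5-fold. CPM are TMM-normalized over all 9 libraries, so their ratios can differ slightly from fold changes. In simulated counts, 83.0% of genes changed by 1 on the log2 scale were recovered in S2-028 against S2-007 among 25685 genes. Read numbers of faint genes are given without an error estimate. The level of IFI44L, for one, had a coefficient of variation between replicates of 41.1% in S2-020 and 45.8% in S2-028. Levels per kilobase use canonical transcripts of GENCODE 44, and coordinates and promoters are from RefSeq. Neighboring genes are the 25 tested genes on each side.

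Members and the 12 lists of other genes were chosen with earlier results of these data known. Per-library values are given for members with a mean of at least 1 CPM that were among the 6 DEGs with the largest change in either direction in a comparison, and for IRF9, added after its values were seen. A further gene of that rule is not reported here. From the other lists at most 6 DEGs with the smallest adjusted p are named, besides genes whose low level is stated, and GBP5 and genes at a threshold or of the marker lists were named after their values were seen. Replicate numbers did not pair the libraries (correlation of deviations between -0.03 and 0.06). Alternatives were RLE size factors, filters on low counts, DESeq2 1.42.0, the likelihood ratio test, all 9 libraries in one fit, a replicate block and leaving out each library.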

Additional observations from a re-analysis of the deposited data

How the results depend on the processing

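The number of called members kept within 1.5 times under all 13 alternatives of each comparison, with 20 to 22 in S2-028 against S2-007, 17 to 22 in S2-020 against S2-007 and 22 to 26 in S2-028 against S2-020. Of 126 pairs of member and comparison, 12 lost a call and 11 gained one under some alternative. The lost calls are named beside the genes in the report. Besides CMPK2, calls were gained in S2-028 against S2-007 by OASL without S2-007 replicate 2 or S2-028 replicate 2, IFIT1 and IFIT2 without S2-007 replicate 1, IFIH1 without S2-028 replicate 1, MX2 without S2-028 replicate 2 and IFIT5 without S2-028 replicate 3. In S2-020 against S2-007, HERC6 gained one without S2-020 replicate 2 and OAS2 without S2-020 replicate 3, and in S2-028 against S2-020 CMPK2 and IFIT3 did without S2-028 replicate 2.

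Signs changed in uncalled values when 1 library was left out. In S2-028 against S2-007 the log2 fold change ranged from -0.039 to 0.091 for OAS3 (lowest without S2-007 replicate 1), from -0.080 to 0.11 for IFIT3 (negative without S2-007 replicate 3, at -0.011, or S2-028 replicate 2) and from -0.38 to 0.0014 for RSAD2 (positive without S2-028 replicate 3). In S2-020 against S2-007 it ranged from -0.061 to 0.13 for IFITM2 (negative without S2-007 replicate 1 or S2-020 replicate 1), from -0.31 to 0.043 for CMPK2 (positive without S2-007 replicate 2) and from -0.022 to 0.075 for EPSTI1 (negative without S2-020 replicate 3). Why single libraries carried these values was not tested.

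With the replicate number as a block, although the numbers did not pair the libraries, 21, 21 and 25 members were called in these comparisons in the order above. It ended the calls of IFIT1 in S2-020 against S2-007 (-0.57) and of ISG20 in S2-028 against S2-020 (0.66). At this depth, values of RSAD2, IFI44L and, in S2-028, GBP1 rest on few reads.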
